A study of Mus musculus with 35 samples.

Results

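Abca1, Abcg1, Apoe, Apoc1, Apoc2, Apoc4, Mylip, Lpcat3, Pltp and Nr1h2 were chosen by symbol, as the liver X receptor (LXR) beta gene with target genes of the LXRs and the apolipoprotein E cluster, and all 10 were found among the 54735 gene symbols of the count tables. They were followed by bulk RNA-seq in 35 samples of macrophages (macs) that had been sorted from the livers of male C57Bl/6J mice, in 6 groups. Resident Kupffer cells (ResKCs, CLEC4F+TIM4+) came from mice fed a standard diet (SD) for 12 weeks (n = 7) or 24 weeks (n = 6) and from mice fed a western diet (WD), rich in fat, cholesterol and sugar, for 12 weeks (n = 5) or 24 weeks (n = 6). Monocyte-derived Kupffer cells (moKCs, CLEC4F+TIM4-, n = 5) and CLEC4F- macs (n = 6) were sorted after 24 weeks of WD, and no moKC or CLEC4F- mac sample came from the SD, so that for these 2 populations the diet cannot be compared. The label field that gives a standard diet for the 5 samples of WD ResKCs at 12 weeks was overruled by their titles and descriptions. CLEC4F and TIM4 defined the gates, so their genes are no finding between the populations. Levels are given as CPM, the count of a gene relative to its library's total as scaled with the TMM factors of edgeR. Levels of different genes are compared only per kilobase (kb) of annotated exon, apart from log2 ratios within a sample. These ratios are of CPM and are not corrected for exon length. A gene was called where the p-value of edgeR's quasi-likelihood test, adjusted after Benjamini and Hochberg over the 13421 genes kept, was under 0.05, and SE is the standard error of a log2 fold change. Of the 10 genes 9 passed the filter on low counts, and Apoc2 did not.

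LXRs are nuclear receptors that bind oxysterols, pair with retinoid X receptors on DNA and switch on genes that move cholesterol out of cells. Nr1h3 encodes LXR alpha, which is abundant in Kupffer cells, and Nr1h2 encodes the broadly expressed LXR beta. Among their known targets are the membrane transporters Abca1 and Abcg1, which load cholesterol onto lipoproteins. Others are the apolipoproteins of the Apoe cluster, the phospholipid transfer protein Pltp, the ubiquitin ligase Mylip, which marks lipoprotein receptors for degradation, and Lpcat3, which builds polyunsaturated phospholipids.

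Library totals lay between 11568590 and 15163845 counts, at which 3 counts of a gene are 0.198 to 0.259 CPM, a floor that covers counting error only. The highest correlation between any pair of samples was 0.985, and no tables were identical. The summed level of 7 Kupffer cell markers was 26605 to 37091 CPM in the 4 ResKC groups, 18598 to 25269 CPM in moKCs and 1472 to 12703 CPM in CLEC4F- macs, with the highest value of the last group in replicate 4. Timd4, which encodes TIM4, lay between 546.5 and 1357 CPM in the ResKC samples and at or under 30.3 CPM in moKC and CLEC4F- mac samples. Clec4f, which encodes CLEC4F, was not absent from CLEC4F- macs, with 293 to 5482 CPM beside 7317 to 11603 CPM in moKCs. The highest CLEC4F- mac value was again that of replicate 4, and the next was 1537 CPM in replicate 6. The summed level of 6 general macrophage markers was 17694 to 28946 CPM over all samples. The headers name the alignments in 2 ways, called the first and second naming scheme here. The first covers 22 samples, and all WD ResKCs at 12 weeks and all SD ResKCs at 24 weeks are among them.

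Between the macrophage populations Apoc1, Pltp and Apoe were called, and between the diets no member was. Apoc1, a small exchangeable apolipoprotein, was highest in ResKCs, lower in moKCs and lowest in CLEC4F- macs, and Pltp was lower in CLEC4F- macs than in both Kupffer cell populations. Apoe was abundant in every population. Its mean was highest in moKCs, which did not pass the test against CLEC4F- macs (log2 fold change 0.20, SE 0.14, adjusted p = 0.419). Abca1, Abcg1, Mylip, Lpcat3, Nr1h2 and Apoc4 passed the test in no comparison.

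**Figure D1:**
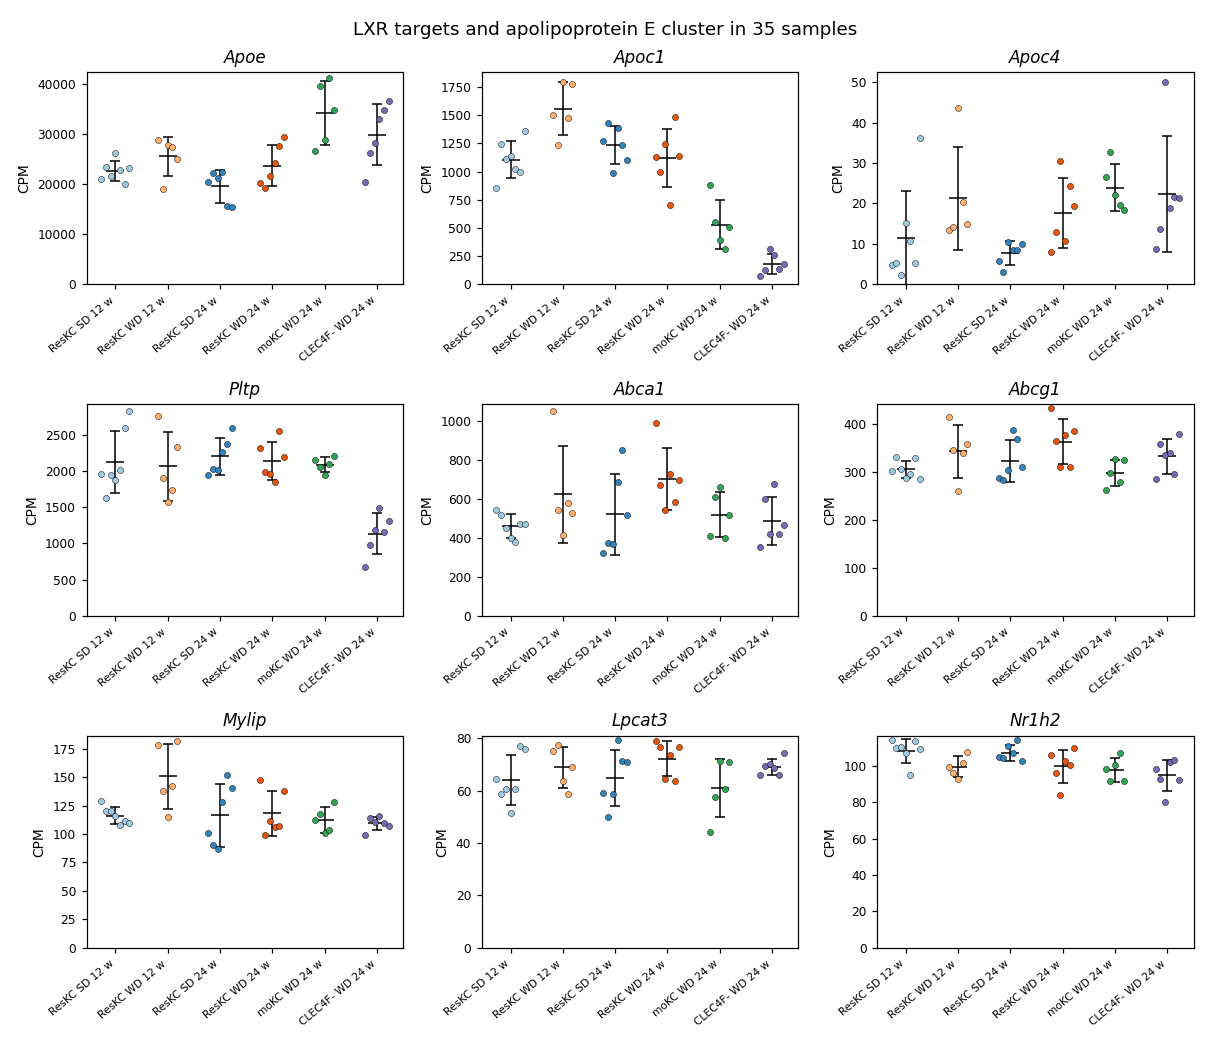
Level of 9 members in CPM (vertical axes from 0, linear) in each of the 35 samples (points), with the mean and the SD of each group (bars). Apoc1 falls from ResKCs over moKCs (315 to 885 CPM) to CLEC4F- macs (70.1 to 312 CPM), Pltp is lower in CLEC4F- macs than in every other group, and the Nr1h2 samples lie between 80.3 and 114 CPM in all groups.

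Apoe encodes apolipoprotein E, the ligand by which remnant particles are taken up through lipoprotein receptors, and lies on chromosome 7 of mm10 from 19696109 to 19699188 on the minus strand. Its level ranged from 19219 to 29502 CPM with a median of 22866 CPM in WD ResKCs at 24 weeks. In moKCs the samples had 26648, 39536, 28899, 41147 and 34799 CPM. CLEC4F- macs ranged from 20404 to 36552 CPM with a median of 30562 CPM. Thus 3 moKC samples lay above all WD ResKC samples, and the groups overlapped. The transcript took up 3.51% ± 0.677 (SD, n = 5) of all counts in moKCs, 3.24% ± 0.589 (SD, n = 6) in CLEC4F- macs and 2.37% ± 0.398 (SD, n = 6) in WD ResKCs at 24 weeks. Per kb of exon, Apoe ranked between 1 and 4 among 13387 genes in every sample.

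Apoc1 encodes an apolipoprotein that slows the clearance of lipoproteins and lies from 19689481 to 19692660 on the same strand as Apoe, next to it. WD ResKCs at 24 weeks ranged from 707 to 1482 CPM with a median of 1135 CPM. The moKC samples had 885, 551, 393, 315 and 504 CPM. CLEC4F- macs ranged from 70.1 to 312 CPM with a median of 155 CPM, and no CLEC4F- mac sample reached any moKC or ResKC sample. Per kb of exon the means were 1501 ± 347 (SD, n = 6) for WD ResKCs at 24 weeks, 712 ± 295 (SD, n = 5) for moKCs and 242 ± 122 (SD, n = 6) for CLEC4F- macs, in CPM. The corresponding means of Apoe were 11089, 15999 and 13956 CPM per kb. In the order of the 6 group means, Apoc1 was followed down from WD ResKCs at 12 weeks (1558 ± 236 CPM) to SD ResKCs at 24 weeks (1236 ± 167 CPM), WD ResKCs at 24 weeks (1117 ± 258 CPM) and SD ResKCs at 12 weeks (1106 ± 167 CPM). Of these neighbours, the last 3 groups differed from each other by less than their SD.

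Between ResKCs and CLEC4F- macs on the WD, 2 of the 9 members tested were called, both higher in ResKCs, where 33.0% of all genes were called. Apoc1 had a log2 fold change of 2.63 (SE 0.25, adjusted p = 8.36e-10), and it was 6.21-fold higher. Pltp, which moves phospholipids between lipoproteins and is secreted, lies on chromosome 2 from 164839518 to 164857711 on the minus strand. Of its exon bases 19.3% lie opposite exons of Ctsa, and the strand setting of the counting is not given in the sources used here. It had 1851 to 2549 CPM with a median of 2088 CPM in WD ResKCs at 24 weeks. In CLEC4F- macs it ranged from 673 to 1487 CPM with a median of 1174 CPM. The groups did not overlap, and the log2 fold change was 0.92 (SE 0.15, adjusted p = 6.20e-06). In bulk samples, fewer cells of a type and less RNA per cell cannot be told apart. Of the 7 Kupffer cell markers 6 were called higher in ResKCs, as both genes were, and Cd207 was called lower. None of them was at 0 in CLEC4F- macs, and their part in the result was not tested. Within the CLEC4F- macs, replicate 1 had the lowest values of the Kupffer cell markers (1472 CPM), Apoc1 (70.1 CPM) and Pltp (673 CPM). Replicate 4 had the highest marker sum (12703 CPM) and the highest Pltp (1487 CPM) with 262 CPM of Apoc1. The highest Apoc1 (312 CPM) was that of replicate 3, with a marker sum of 4026 CPM. In fits without 1 sample the log2 fold change of Apoc1 stayed between 2.46 and 2.86 and that of Pltp between 0.79 and 1.01.

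Abca1 and Apoe came close to the threshold in this comparison without passing it. Abca1 had 544 to 991 CPM with a median of 683 CPM in WD ResKCs at 24 weeks and 352 to 677 CPM with a median of 445 CPM in CLEC4F- macs, and the log2 fold change was 0.52 (SE 0.21, adjusted p = 0.0600). The value of Apoe was -0.33 (SE 0.14, adjusted p = 0.0589). The fit of limma-voom gave adjusted p = 0.0476 for Abca1, and DESeq2 gave 0.0408 for Abca1 and 0.0392 for Apoe. In 10 alternatives, these included, adjusted p was under 0.05 in 4 for Abca1 and in 6 for Apoe (up to 0.130 and 0.118). In 12 fits without 1 sample it was under 0.05 in 2 for Abca1 and in 4 for Apoe (up to 0.179 and 0.155). The remaining members had fold changes with 95% intervals on both sides of 0, of which the narrowest was that of Nr1h2 (log2 fold change 0.07, interval -0.06 to 0.20).

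Between ResKCs and moKCs on the WD, Apoc1 was higher in ResKCs and Apoe was lower, so 2 of 9 members were called where 2.99% of all genes were. The log2 fold change of Apoc1 was 1.08 (SE 0.25, adjusted p = 0.0134), with moKC replicate 1 at 885 CPM inside the range of the ResKCs. Without moKC replicate 4, the lowest of its group, it was 0.94 with adjusted p = 0.0599. The log2 fold change of Apoe was -0.53 (SE 0.14, adjusted p = 0.0330), that is 1.44-fold higher in moKCs. This call was lost in 6 of the 11 fits without 1 sample (lowest log2 fold change -0.61, highest -0.45, adjusted p up to 0.126). These were the fits without WD ResKC replicate 1, 2 or 3 or moKC replicate 2, 4 or 5. Pltp had 2147, 2058, 1942, 2090 and 2199 CPM in the moKC samples, within the range of the ResKCs (log2 fold change 0.04, 95% interval -0.27 to 0.34).

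Between moKCs and CLEC4F- macs, Apoc1 and Pltp were again higher in the Kupffer cell population, 2 of 9 members where 16.4% of all genes were called. Apoc1 was 2.95-fold higher in moKCs (log2 fold change 1.56, SE 0.25, adjusted p = 2.81e-05). Pltp was 1.84-fold higher (log2 fold change 0.88, SE 0.15, adjusted p = 6.04e-05). For both genes every moKC sample lay above every CLEC4F- mac sample. The comparisons of the 3 WD populations share samples and are not independent of each other. The median log2 fold change of the 9 members was 0.11 for ResKCs against CLEC4F- macs, 0.07 for ResKCs against moKCs and 0.09 for moKCs against CLEC4F- macs, where all genes had medians of -0.02, -0.02 and 0.01.

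**Figure D2:**
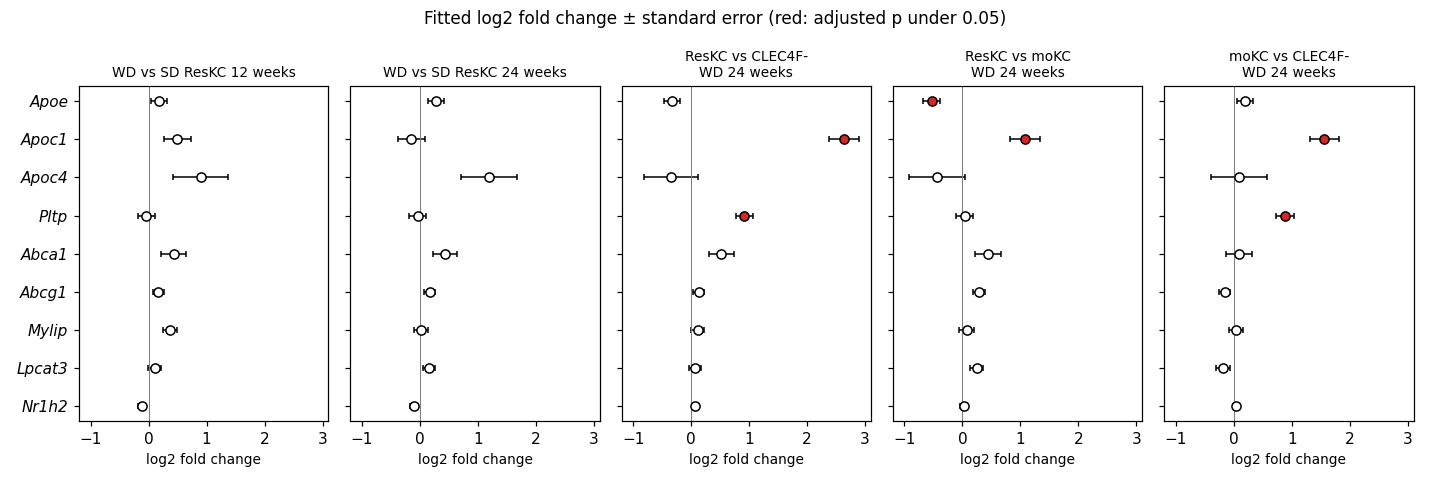
Fitted log2 fold change (horizontal axes) of 9 members in 5 comparisons, with the SE as bars and red points for adjusted p under 0.05. Apoc1 is red in the 3 comparisons of populations (2.63, 1.08 and 1.56), Pltp in both against CLEC4F- macs, Apoe between ResKCs and moKCs (-0.53), and no point is red for the diet.

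Since Apoc1 and Apoe are neighbours in 1 cluster, their levels were also set against each other within each sample. The log2 ratio of Apoc1 to Apoe was -4.43 ± 0.39 (SD, n = 6) in WD ResKCs at 24 weeks, -6.08 ± 0.76 (SD, n = 5) in moKCs and -7.51 ± 0.65 (SD, n = 6) in CLEC4F- macs. ResKCs exceeded CLEC4F- macs by 3.09, with no overlap of the samples (two-sided exact permutation test, p = 0.00217, adjusted p = 0.0108 over the 10 ratio tests, n = 6 and 6). They exceeded moKCs by 1.66 (exact p = 0.00866, adjusted p = 0.0217). moKCs exceeded CLEC4F- macs by 1.43 (exact p = 0.0130, adjusted p = 0.0260). Within the first naming scheme these differences were 3.28, 1.36 and 1.92, and within the second they were 2.90, 1.78 and 1.12. Here 0.00217 is the smallest p that 6 against 6 samples can give.

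The same ratio differed between the diets in opposite directions at the 2 times, and only the 12-week difference passed after adjustment. At 12 weeks it was -4.03 ± 0.19 (SD, n = 5) in WD ResKCs and -4.36 ± 0.18 (SD, n = 7) in SD ResKCs, a difference of 0.33 (exact permutation p = 0.0177, adjusted p = 0.0295). At 24 weeks it was -4.43 ± 0.39 (SD, n = 6) in WD ResKCs and -3.98 ± 0.26 (SD, n = 6) in SD ResKCs, a difference of -0.45 (exact permutation p = 0.0368, adjusted p = 0.0526), which missed the threshold after adjustment. The difference between both diet effects was -0.78 (two-sided exact permutation of the diet within each time, p = 0.000947, adjusted p = 0.00189 over the 2 ratios). This last test was added after the 2 differences had been seen. Within the first naming scheme alone the diet differences were 0.34 (n = 5 and 3, exact permutation p = 0.0714) and -0.20 (n = 3 and 6, exact permutation p = 0.262). Their difference was -0.55 (exact permutation p = 0.0225). Without 1 sample, the 24-week difference lost an exact permutation p under 0.05 in 8 of 12 cases. The mean ratio of WD ResKCs at 24 weeks was -4.18 in the first scheme and -4.67 in the second. All SD ResKCs at that time are of the first. Neither gene passed the test of its own difference of diet effects (Apoc1: log2 difference -0.64, SE 0.34, adjusted p = 0.398).

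**Figure D3:**
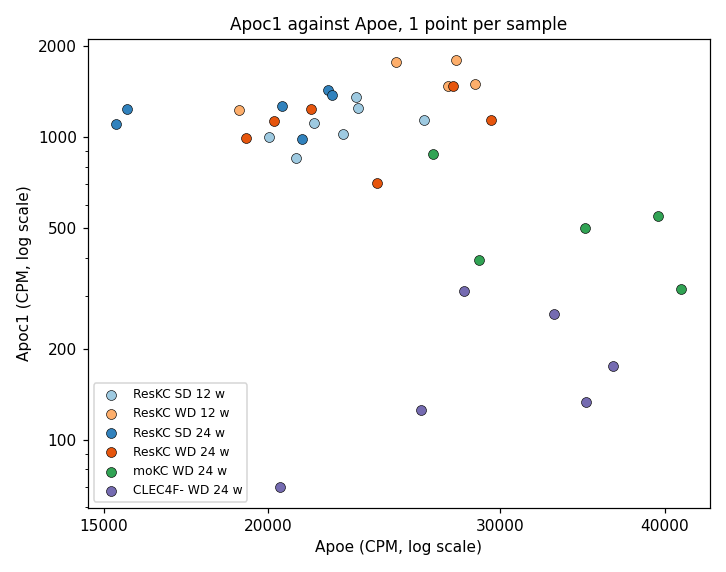
Apoc1 against Apoe in CPM, both on log scales, with 1 point per sample and colours for the 6 groups. ResKC samples lie at 707 to 1800 CPM of Apoc1, 4 of the 5 moKC samples and all CLEC4F- mac samples lie below this range, and moKC replicate 1 lies within it at 885 CPM.

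Apoc2 and Apoc4 complete the cluster, at 19671579 to 19677941 and 19678083 to 19681479 on the minus strand of chromosome 7. Apoc2, the activator of lipoprotein lipase, had 0 counts in 29 of the 35 samples, 1 count in 5 and 4 counts (0.258 CPM) in CLEC4F- mac replicate 3. Apart from that sample its level was under the floor of 3 counts, and no comparison was made. Of its annotated exon bases 79.5% are shared on the same strand with the read-through gene Gm44805, which had no count in any sample, and how reads over these bases were assigned is not given in the sources used here.

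Apoc4 had 7.90 to 30.5 CPM with a median of 16.2 CPM in WD ResKCs and 2.89 to 10.5 CPM with a median of 8.45 CPM in SD ResKCs at 24 weeks, and the groups overlapped. The log2 fold change was 1.20 (SE 0.48, adjusted p = 0.114). It passed in the fit of only these groups (adjusted p = 0.0448) and with the replicate block (adjusted p = 0.0184). At 12 weeks it was 0.90 (SE 0.47, adjusted p = 0.611), with up to 43.7 CPM in 1 WD sample and 36.1 CPM in 1 SD sample, beside medians of 14.8 and 5.33 CPM. Without this SD sample, replicate 7, the value was 1.55 (adjusted p = 0.0891), and without this WD sample, replicate 3, it was 0.46 (adjusted p = 0.933). Apoc4 and 12 hepatocyte markers, such as Alb, varied together. Within groups the Pearson correlation of Apoc4 with the mean log2 CPM of these markers was 0.95 over 35 samples, and the other 8 members lay between -0.39 and 0.40. The summed level of the 12 markers was 1062 to 3110 CPM in WD ResKCs and 433 to 1456 CPM in SD ResKCs at 24 weeks, 1432 to 2841 CPM in moKCs and 695 to 2528 CPM in CLEC4F- macs, and none of them was at 0 in any group. With the marker level as a covariate the log2 fold change of Apoc4 for ResKCs against CLEC4F- macs was -0.78 (adjusted p = 0.000234), and without it -0.35 (adjusted p = 0.627). With the same covariate the diet values of Apoc4 were 0.59 at 12 weeks (adjusted p = 0.196) and 0.33 at 24 weeks (adjusted p = 0.245). None of 7 apolipoproteins from outside the cluster, such as Apoa1 and Apob, was called in any comparison, with summed levels of 90.1 to 1533 CPM.

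**Figure D4:**
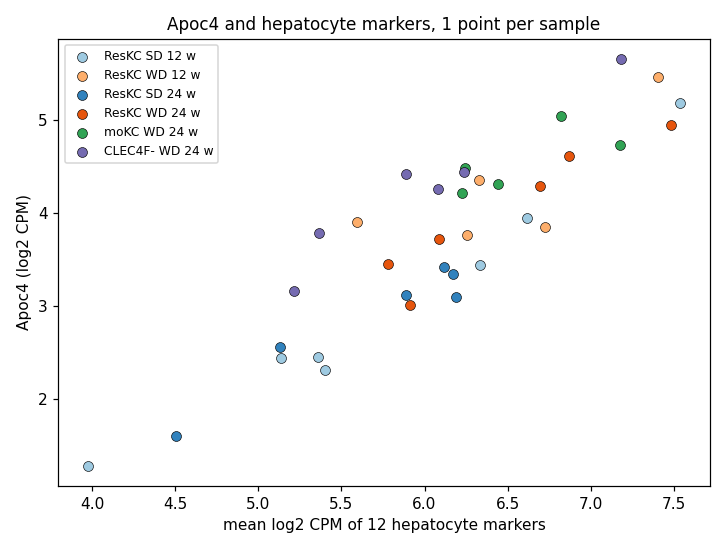
Apoc4 in log2 CPM against the mean log2 CPM of 12 hepatocyte markers, with 1 point per sample and colours for the 6 groups. Apoc4 is higher in samples with more hepatocyte RNA in all groups (within-group r = 0.95).

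Abca1 and Abcg1 encode the 2 transporters by which macrophages pass cholesterol to lipid-poor apolipoprotein A-I and to HDL. Abca1 lies on chromosome 4 from 53030787 to 53159895 on the minus strand and Abcg1 on chromosome 17 from 31057675 to 31117988 on the plus strand. In the RefSeq sequences for GRCm38.p6, promoters (250 bases before to 50 after the start) were given for 8 members and not for Abcg1 and Apoc1. They were searched on both strands for the LXR response element, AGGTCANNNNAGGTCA, with at most 3 mismatches in its 12 fixed positions. The Abca1 promoter was the only one of the 8 with a match, 67 to 52 bases before the start on the opposite strand. It reads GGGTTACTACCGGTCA with 3 mismatches. Of all 32851 promoters 21.9% hold such a match. Whether LXRs bind this match was not tested. The 250 bases before the start of Abca1 (chr4:53159896-53160145, minus strand) are shown because they hold the match, in capitals.
Abca1: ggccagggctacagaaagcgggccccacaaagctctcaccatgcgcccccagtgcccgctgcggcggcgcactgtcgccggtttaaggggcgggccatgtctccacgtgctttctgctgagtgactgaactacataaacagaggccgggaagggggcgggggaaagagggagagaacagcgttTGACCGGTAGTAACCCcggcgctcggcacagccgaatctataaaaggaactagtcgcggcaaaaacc

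WD and SD ResKCs did not differ in Abca1 beyond the test. At 12 weeks the WD samples had 1053, 545, 414, 582 and 528 CPM, against 378 to 545 CPM with a median of 471 CPM on the SD. At 24 weeks WD samples had 544 to 991 CPM and SD samples had 324 to 851 CPM with a median of 447 CPM. The log2 fold changes were 0.44 (SE 0.22, adjusted p = 0.572) and 0.43 (SE 0.21, adjusted p = 0.207), with 95% intervals of -0.0023 to 0.87 and -0.0039 to 0.87. Abcg1 varied less, with group means from 299 to 364 CPM, and its diet fold changes were 0.17 at both times (95% intervals -0.03 to 0.37 and -0.03 to 0.36). Between ResKCs and moKCs that of Abcg1 was 0.29 (SE 0.10, adjusted p = 0.126).

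No member was called between WD and SD ResKCs in the fits of all 35 samples by edgeR, limma-voom or DESeq2 at 12 weeks, where 0.0373% of all genes were called, or at 24 weeks, where 8.71% were. At an unadjusted p under 0.05 there were 2 of the 9 members at 12 weeks (Apoc1 and Mylip), beside 8.73% of all genes. At 24 weeks there were 2 (Apoe and Apoc4), beside 24.8% of all genes. Apoc1 at 12 weeks had 1502, 1235, 1800, 1474 and 1782 CPM in the WD samples and 854 to 1360 CPM with a median of 1116 CPM in the SD samples, so that 4 of 5 WD samples lay above all SD samples. Its log2 fold change of 0.49 (SE 0.24) had adjusted p = 0.57. Apoe at 24 weeks had 15322 to 22350 CPM with a median of 20844 CPM in SD samples, and its WD samples reached above this range (log2 fold change 0.28, SE 0.14, adjusted p = 0.196). The median log2 fold change of the 9 members was 0.18 at 12 weeks and 0.16 at 24 weeks, beside 0.02 and 0.00 over all genes. The immediate-early and heat-shock genes moved with the diet at 24 weeks. Their summed level was 1861 to 10175 CPM in SD and 853 to 3839 CPM in WD ResKCs, and 6 of the 10 were called lower on the WD. Their part in the diet values was not tested beyond the covariate fit, in which no member was called either.

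Mylip, Lpcat3 and Nr1h2 were called in no comparison. They lie on chromosome 13 from 45389742 to 45412022 (Mylip), on chromosome 6 from 124663027 to 124704418 (Lpcat3, 10.2% of its exon bases opposite exons of Emg1) and on chromosome 7 from 44549616 to 44553951 (Nr1h2), far from the Apoe cluster. Mylip in WD ResKCs at 12 weeks had 178, 138, 115, 142 and 182 CPM, and in SD ResKCs 108 to 129 CPM with a median of 116 CPM, so that 4 of 5 WD samples lay above all SD samples. The log2 fold change was 0.38 (SE 0.12, adjusted p = 0.344), the lowest adjusted p of the members at that time. At 24 weeks it was 0.02 (95% interval -0.22 to 0.27). The difference between both was -0.35 (SE 0.17, adjusted p = 0.344). Lpcat3 group means ran from 60.9 to 72.3 CPM, with its furthest fold change between ResKCs and moKCs (log2 0.25, SE 0.12, adjusted p = 0.280). Nr1h2 group means ran from 94.7 to 108 CPM, and its 5 log2 fold changes from -0.12 to 0.07.

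At 24 against 12 weeks on the SD no gene was called (0.0% of 13421) and so no member. By edgeR 1208 genes had an unadjusted p under 0.05, none of them a member, and DESeq2 called 16 genes, none a member. Members' log2 fold changes ran from -0.57 (Apoc4, adjusted p = 0.756) to 0.18 (Abca1, adjusted p = 0.838). A change of the diet effect from 12 to 24 weeks was called for 0.283% of genes and for no member by edgeR, limma-voom or DESeq2. Of the members Mylip alone had an unadjusted p under 0.05 for this change, beside 14.05% of all genes.

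The receptors were read beside their targets. Nr1h3, on chromosome 2 from 91184061 to 91202834, had 678 to 934 CPM with a median of 776 CPM in WD ResKCs at 24 weeks. moKCs had 645 to 784 CPM with a median of 725 CPM, and CLEC4F- macs had 371 to 574 CPM with a median of 438 CPM. CLEC4F- macs lay below all ResKC and moKC samples. The fitted log2 value was 0.82 for ResKCs against CLEC4F- macs (SE 0.09, adjusted p = 7.08e-09) and for moKCs 0.68 (SE 0.09, adjusted p = 2.60e-06). Rxra, the partner receptor, moved with it (log2 fold changes 1.17 and 0.90, adjusted p = 1.35e-09 and 2.01e-06). The log2 ratio of Nr1h3 to Nr1h2 was 2.97 ± 0.15 (SD, n = 6) in WD ResKCs at 24 weeks, 2.86 ± 0.17 (SD, n = 5) in moKCs and 2.22 ± 0.22 (SD, n = 6) in CLEC4F- macs. ResKCs exceeded CLEC4F- macs by 0.76 (exact permutation p = 0.00217, adjusted p = 0.0108) and moKCs by 0.12 (exact p = 0.294, adjusted p = 0.294). moKCs exceeded CLEC4F- macs by 0.64 (exact p = 0.00433, adjusted p = 0.0144). Between WD and SD ResKCs it differed by 0.12 at 12 weeks (exact p = 0.139, adjusted p = 0.154) and by -0.15 at 24 weeks (exact p = 0.126, adjusted p = 0.154). These 2 diet effects differed by -0.26 (exact permutation of the diet within each time, p = 0.0286, added after the values were seen). Nr1h3 itself had a diet log2 fold change of -0.25 at 24 weeks (SE 0.09, adjusted p = 0.0639), which DESeq2 called (adjusted p = 0.0402).

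The gene lists that follow were counted beside the share of all genes called, which was 0.0373% and 8.71% for the diet at 12 and 24 weeks, 33.0% for ResKCs against CLEC4F- macs, 2.99% for ResKCs against moKCs and 16.4% for moKCs against CLEC4F- macs. Of 7 receptors and co-regulators, Nr1h3 and Rxra were the 2 called higher in ResKCs than in CLEC4F- macs, and none was called for the diet or between ResKCs and moKCs. Against CLEC4F- macs moKCs had the same 2 called higher and 1 called lower.

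Of 16 other LXR target genes, 1 was called higher on the WD at 12 weeks and none lower. This was Lpl, lipoprotein lipase, which frees fatty acids from triglycerides (2283 ± 137 CPM, SD, n = 5, against 1386 ± 302 CPM, SD, n = 7, log2 fold change 0.72, adjusted p = 0.0474). At 24 weeks 4 were called higher (Scd1, Fasn, Lpl and Scd2) and Smpdl3a lower. The furthest of those called were the desaturase Scd1 (1.30, adjusted p = 0.0265), the fatty acid synthase Fasn (0.95, adjusted p = 0.00639) and Lpl (0.68, adjusted p = 0.00288) as log2 fold changes. With the immediate-early and heat-shock level as a covariate none of the 3 passed: Scd1 had 0.61 (adjusted p = 0.438), Fasn had 0.68 (adjusted p = 0.118) and Lpl had 0.47 (adjusted p = 0.0788). Over all genes, that fit called 476 at 24 weeks in place of 1169. Of the 10 covariate genes 6 were themselves called lower on the WD. The call of Scd1 was also lost with the naming scheme as a covariate (adjusted p = 0.0577) and in 3 of 12 fits without 1 sample (SD replicate 1 or 2, WD replicate 3). Without filter or with limma-voom, the 12-week call of Lpl was lost (adjusted p = 0.0935 and 0.0541), as in 11 of 12 fits without 1 sample, all but the one without SD replicate 7. Srebf1, which drives fatty acid synthesis and is itself an LXR target, had log2 fold changes of 0.11 and 0.05 for the diet (adjusted p = 0.749 and 0.797).

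Between ResKCs and CLEC4F- macs 6 of these 16 genes were called higher and 1, Arl4c, lower in ResKCs. The furthest were Cd5l, a secreted scavenger receptor protein of Kupffer cells (log2 fold change 1.76, adjusted p = 3.47e-07), Smpdl3a (0.89, adjusted p = 4.49e-09) and Cd38 (0.82, adjusted p = 1.11e-05). Cd5l is also 1 of the 7 Kupffer cell markers. moKCs against CLEC4F- macs had 5 called higher (with Mertk and Tgm2) and 2 lower (Arl4c and Npc1), with Cd5l, Smpdl3a and Cd38 again furthest up (1.42, 0.73 and 0.60). With the replicate block that of Cd38 had adjusted p = 0.0768. ResKCs against moKCs had 1 called, Npc1, the lysosomal cholesterol exporter (log2 fold change 0.46, adjusted p = 0.0400), a call lost in 8 of 11 fits without 1 sample and in 5 other alternatives (adjusted p up to 0.200). The median of the 16 genes was 0.23 for ResKCs against CLEC4F- macs and 0.14 for moKCs.

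Most sterol synthesis and uptake genes were higher in CLEC4F- macs than in ResKCs. Of 10 targets of SREBP2, the transcription factor active when sterols are low, 8 were called lower in ResKCs than in CLEC4F- macs and none higher, with a median log2 fold change of -0.60. Sqle, squalene epoxidase, had 3.33 CPM in WD ResKCs and 13.1 CPM in CLEC4F- macs on average (log2 fold change -1.98, adjusted p = 3.45e-07). Against CLEC4F- macs moKCs had 2 of the 10 called lower, Sqle (-1.68, adjusted p = 3.62e-05) and Srebf2, and none was called for the diet or between ResKCs and moKCs. Among 4 lipoprotein receptors tested, 3 were called lower and Lrp1 higher in ResKCs than in CLEC4F- macs. Sorl1 had 14.1 to 35.7 CPM in WD ResKCs and 91.4 to 213 CPM in CLEC4F- macs (log2 fold change -2.64, adjusted p = 3.97e-08). Lrp8 had 0 counts in all 6 WD ResKC samples and 0.850 to 4.36 CPM in CLEC4F- macs. Monocyte markers moved with these differences (16.4 to 52.7 CPM in summed level in WD ResKCs and moKCs, 243 to 1206 CPM in CLEC4F- macs). So did markers of B cells (4 of 4 called lower in ResKCs than in CLEC4F- macs, with sums of 9.86 to 28.4 and 28.2 to 163 CPM), of T and NK cells (3 of 3 tested, 0.963 to 3.07 and 4.91 to 17.4 CPM) and of stellate cells (3 of 6, 33.6 to 99.6 and 70.2 to 255 CPM). The part of these cell types in the result was not tested.

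Of 9 oxysterol and cholesterol handling genes, 2 were called higher (Soat1 and Lipa) and 2 lower in ResKCs than in CLEC4F- macs. Ch25h, which makes 25-hydroxycholesterol, an LXR ligand, had 0 to 0.876 CPM in WD ResKCs and 1.90 to 4.07 CPM in CLEC4F- macs (log2 fold change -2.53, adjusted p = 0.00229). Soat1, which esterifies cholesterol for storage, was higher in ResKCs than in CLEC4F- macs (0.32, adjusted p = 0.00157) and than in moKCs (0.31, adjusted p = 0.0265) on the log2 scale. The call against moKCs was lost in 5 of 11 fits without 1 sample and in 3 other alternatives (adjusted p up to 0.220). The sterol carrier Stard4 was called higher in CLEC4F- macs than in ResKCs (log2 fold change of ResKCs -0.61, adjusted p = 0.0430), and lost this call in 7 of 12 fits without 1 sample and in 4 other alternatives (adjusted p up to 0.143). On the WD at 24 weeks 1 of the 9 was called higher. Of 5 other efflux and HDL genes tested, the HDL receptor Scarb1 was called higher in ResKCs and in moKCs than in CLEC4F- macs (log2 fold changes 0.66 and 0.46, adjusted p = 8.91e-07 and 0.000819), and none for the diet. With the replicate block its moKC value had adjusted p = 0.0923. Of 6 liver sinusoidal endothelial markers, 2 (Stab2 and Pecam1) were also called higher in ResKCs and in moKCs than in CLEC4F- macs, and none lower. The median log2 fold changes of the 6 were -0.275 and 0.543. Their summed level was 468 to 903 CPM in WD ResKCs at 24 weeks, 489 to 1380 CPM in moKCs and 393 to 612 CPM in CLEC4F- macs. The part of endothelial cells in the result was not tested.

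Within groups, the members did not all vary together. After each group's mean was subtracted from the log2 CPM, Abca1 correlated with Abcg1 at r = 0.81, with Mylip at 0.68 and with Lpcat3 at 0.55 over the 35 samples, and Abcg1 with Mylip at 0.63 and with Lpcat3 at 0.64. Apoe correlated with Abca1 at -0.07, with Abcg1 at -0.02 and with its neighbour Apoc1 at 0.25. Apoc1 and Pltp had r = 0.49, and their r with the mean log2 CPM of the Kupffer cell markers was 0.14 and 0.50. Pltp also had r of 0.38 to 0.44 with Abca1, Abcg1, Mylip and Lpcat3. With the mean of each naming scheme in each group subtracted, Abca1 and Abcg1 had r = 0.82 and Abca1 and Mylip 0.68. Pltp then had 0.47 to 0.57 with Abca1, Abcg1, Mylip and Lpcat3, and 0.51 with Apoc1. These values are descriptions, and which samples were prepared together is not known here. Abca1 correlated with the hepatocyte markers at -0.11 and with the immediate-early genes at -0.02.

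**Figure D5:**
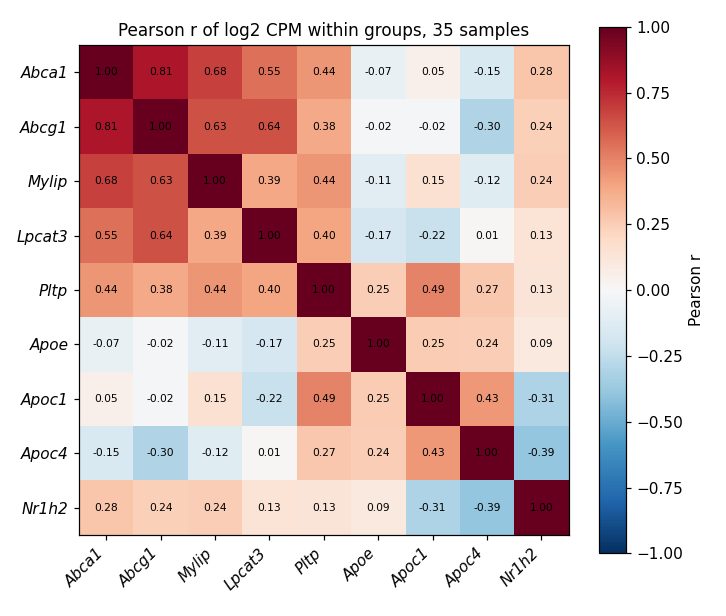
Pearson r between members of log2 CPM after subtraction of group means, over 35 samples, on a colour scale from -1 to 1 with values printed. Abca1, Abcg1, Mylip and Lpcat3 have r of 0.39 to 0.81 with each other. With these 4, Pltp has r of 0.38 to 0.44 and Apoe has r of -0.17 to -0.02.

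Genes outside the list with the pattern most like a member were taken by the same within-group r over 35 samples. They were Gosr1, Wdfy3 and Txnrd1 for Abca1 (r = 0.78 to 0.80). For Abcg1 they were Scd2, Pcyox1 and Eepd1 (0.73 to 0.78), and for Mylip they were Akt1, B4galt6 and Tollip (0.76 to 0.78). Apoe had the weakest likeness, to Rcbtb2, Mettl27 and Fam32a (0.70 to 0.71). Apoc1 was most like Chp2, Oplah and Lilra5 (0.76 to 0.77), which also had r of 0.94 to 0.96 with it over all samples with the group means left in. Pltp was most like Man2b1, Ephx1 and Pttg1ip (0.81 to 0.84).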

How the data were processed

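Single reads from TruSeq libraries were, per the labels and the study's methods, mapped by the authors to mm10 with HISAT2 2.2.0 and counted per gene with featureCounts 2.0.0. What was deposited are raw counts, 1 whole number for each gene symbol and sample, and the strand setting and the handling of multi-mapping and overlapping reads are not given in the sources used here. A gene entered the tests if 5 or more samples had over 1 CPM. In R 4.3.3, edgeR 4.0.16 gave the TMM factors and the quasi-likelihood tests, from 1 fit of 6 group means over 35 samples, with Benjamini-Hochberg adjustment. Log2 CPM used a prior count of 2, and ratios were compared with two-sided exact permutation tests. Standard errors are the absolute log2 fold change over the root of the F statistic, and 95% intervals derive from them with the t distribution of the test's degrees of freedom. The study gives n as the number of animals, the labels name no animal for a sample, and the p-values measure the spread between samples. Gene positions are from GENCODE M21, and 54106 of the 54735 symbols were found there.

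Alternatives were limma-voom with limma 3.58.1, DESeq2 1.42.0, scaling by library size alone, no filter, robust dispersion, an added limit of an absolute log2 fold change over 1, only the groups compared, the replicate number as a block, covariates for hepatocyte markers, for immediate-early and heat-shock genes or for the naming scheme, and each sample left out. Ratios were also computed with a prior count of 0.5 and, added after the data were seen, within the first naming scheme. Members and gene lists were chosen with earlier results of these data known. Outside the members, the text names from each list at most the 3 called genes furthest from 0 in a comparison, with Nr1h3, Rxra, Srebf1, Scd1 and Lpl, and for 6 members the 3 most alike genes. Srebf2, Alb, Apoa1, Apob, Gm44805, Ctsa, Emg1, Timd4, Clec4f and Scd2 were named besides, after their values were seen. So were Smpdl3a, Arl4c, Mertk, Tgm2, Lrp1, Lipa, Cd207, Stab2 and Pecam1. Values of some other genes of the lists are not reported here.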

Additional observations from a re-analysis of the deposited data

Results flagged for a closer look

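In SD ResKCs at 12 weeks, replicate 5 had 94.7 CPM of Nr1h2, apart from the other 6 samples at 107 to 114 CPM. It was the only such sample in the 54 sets of 1 member in 1 group that were checked, and chance sets a sample apart in about 5% of such sets. The diet effect on the log2 ratio of Apoc1 to Apoe differed between 24 and 12 weeks by -0.78 (exact permutation p = 0.000947), and by -0.55 within the first naming scheme (exact permutation p = 0.0225). The diet effect on the log2 ratio of Nr1h3 to Nr1h2 differed by -0.26 (exact permutation p = 0.0286), and by -0.31 within the first naming scheme (exact permutation p = 0.0347). Both tests were added after the diet differences at each time had been seen, and so are no independent evidence of them.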

How the results depend on the processing

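The calls of Apoc1 and Pltp between ResKCs and CLEC4F- macs held in every alternative and without any 1 sample, as did those of Pltp, Nr1h3 and Rxra between moKCs and CLEC4F- macs, apart from the added fold limit. With an absolute log2 fold change over 1 required as well, which Pltp misses, 1 member was called in each of the 3 comparisons of populations. Between ResKCs and CLEC4F- macs 4 members were called with hepatocyte markers as covariate, with DESeq2 and with the replicate block. Between ResKCs and moKCs 1 was called without filter, with only the groups compared and with the block, and 0 to 2 in fits without 1 sample. In moKCs against CLEC4F- macs 1 was called with the block, where Apoc1 had adjusted p = 0.104. In WD against SD ResKCs at 24 weeks 1 member, Apoc4, was called with only the groups compared (adjusted p = 0.0448) and with the block (adjusted p = 0.0184).

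The replicate numbers of the labels are not said to pair animals, and same-numbered samples did not all correlate over 0.1 in any comparison. With the replicate block as sign flips, the Apoc1 to Apoe differences were 0.39 (exact p = 0.0625, the smallest possible) and -0.45 (exact p = 0.0938) for the diet at 12 and 24 weeks, 1.71 (exact p = 0.0625) for ResKCs against moKCs and 1.39 (exact p = 0.125) for moKCs against CLEC4F- macs, and the Nr1h3 to Nr1h2 difference was 0.67 (exact p = 0.0625) for moKCs against CLEC4F- macs. Within the first naming scheme the Apoc1 to Apoe diet differences were 0.34 (exact p = 0.0714) and -0.20 (exact p = 0.262). Without 1 sample, at 24 weeks that ratio ran from -0.54 to -0.32 (8 of 12 lost p under 0.05), and the Nr1h3 to Nr1h2 ratio from -0.20 to -0.11.

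Library size alone moved the median of all genes by -0.14 in ResKCs against CLEC4F- macs, with 1631 genes called higher and 3268 lower in place of 2278 and 2155, and by -0.08 in moKCs against CLEC4F- macs (938 and 1478 in place of 1253 and 951). Uncalled log2 fold changes near 0 changed sign with it. In ResKCs against CLEC4F- macs these were Lpcat3 (-0.0597), Mylip (-0.0146) and Nr1h2 (-0.0497). In ResKCs against moKCs they were Nr1h2 (-0.0122) and Pltp (-0.0033), in moKCs against CLEC4F- macs Mylip (-0.0483) and Nr1h2 (-0.0375), and for the 24-week diet Pltp (0.0374). Pltp also turned with the immediate-early covariate between ResKCs and moKCs (-0.0242) and at 12 weeks with the naming scheme (0.10) and the block (0.0872). Apoc4 turned with the hepatocyte covariate in moKCs against CLEC4F- macs (-0.34) and with the block between SD times (0.18). Without 1 sample, uncalled values that changed sign ran from -0.0198 to 0.28 (Abca1, SD times), -0.0135 to 0.20 (Abca1, moKCs against CLEC4F- macs), -0.57 to 0.0666 (Apoc4, ResKCs against CLEC4F- macs), -0.75 to 0.0783 (Apoc4, SD times; the latter without SD ResKC replicate 7 at 12 weeks), -0.085 to 0.51 (Apoc4, moKCs against CLEC4F- macs), -0.0002 to 0.13 (Mylip, ResKCs against moKCs), -0.0497 to 0.11 (Mylip, 24-week diet), -0.0156 to 0.0749 (Mylip, moKCs against CLEC4F- macs), -0.0195 to 0.0751 (Pltp, ResKCs against moKCs), -0.17 to 0.0431 (Pltp, 12-week diet) and -0.096 to 0.0131 (Pltp, 24-week diet). The cause of these changes was not tested. Genes called over the alternatives other than left-out samples ran from 0 to 44 (12-week diet, 5 in the report), 476 to 1504 (24-week diet, 1169), 120 to 576 (ResKCs against moKCs, 401), 667 to 2416 (moKCs against CLEC4F- macs, 2204), 0 to 16 (SD times, 0) and 4 to 184 (difference of diet effects, 38). Without 1 sample the 12-week diet had 84 without SD replicate 7 and 0 in all 11 other fits, the difference of diet effects had 8 (without SD replicate 1 at 24 weeks) to 98 (without SD replicate 3 at 24 weeks), and ResKCs against moKCs had 232 (without moKC replicate 4) to 522 (without moKC replicate 1). Apoc2 stayed under the filter on low counts, and no comparison of it is given.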
